A study of Homo sapiens with 6 samples.

Results

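The phospholipases and enzymes of prostaglandin metabolism were examined as 10 genes. They were PLA2G7, PLA2G4A, PTGS1, PTGS2, PTGES, PTGIS, AKR1B1, HPGD, PTGER2 and PTGER4, chosen by function with earlier results of these data known. Every probe set that the annotation assigned to a single one of them was taken. This gave 20 probe sets of 9 genes, out of 54613 probe sets and 19775 named genes tested. AKR1B1, an aldo-keto reductase that can make prostaglandin F, was not analysed here because the annotation used gave it no probe set of its own. RNA came from the IKPRAB-36 line, Ishikawa endometrial carcinoma cells stably transfected with progesterone receptor A (PRA) and B (PRB). All cells grew in medium with charcoal stripped FCS, hygromycin and neomycin. Control cells (3 arrays) received nothing further, and MPA cells (3 arrays) received 1 nM medroxyprogesterone acetate, a synthetic progestin, both for 48 h. The receptors are expressed from introduced constructs in 1 cell line, and the labels do not say whether the arrays of a group came from separate cultures, so p-values measure the spread between arrays, which may be technical.

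Prostaglandins are made in steps. Cytosolic phospholipase A2 frees arachidonic acid from membranes, the cyclooxygenases PTGS1 and PTGS2 turn it into prostaglandin H2, and terminal synthases such as PTGES and PTGIS make prostaglandin E2 and prostacyclin from that. HPGD inactivates prostaglandins, and PTGER2 and PTGER4 are the receptors through which prostaglandin E2 raises cAMP. PLA2G7 stands beside this chain, since it is the secreted phospholipase that degrades platelet-activating factor (PAF) and oxidized phospholipids. In the endometrium prostaglandins take part in menstruation and implantation, and progesterone is known to act on their synthesis and breakdown.

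Promoter sequences were read for PLA2G7, the one member that passed the test, and for PTGS2, the inducible cyclooxygenase. RefSeq windows (GRCh38.p14) reach from 250 bases before to 50 after a transcription start, and 13 windows of 9 of the 10 genes were found. Printed here are the 250 bases before the start and the first 20 from it, 5′ to 3′. The first PLA2G7 window lay at chr6:46735702-46735971 and the PTGS2 window at chr1:186680404-186680673, both on the minus strand. Capitals mark matches to the motifs searched.
PLA2G7: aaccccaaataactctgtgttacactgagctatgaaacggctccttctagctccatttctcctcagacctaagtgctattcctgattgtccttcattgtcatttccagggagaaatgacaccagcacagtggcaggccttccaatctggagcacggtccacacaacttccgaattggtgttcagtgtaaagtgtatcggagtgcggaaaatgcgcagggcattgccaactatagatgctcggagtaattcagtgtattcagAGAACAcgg
PTGS2: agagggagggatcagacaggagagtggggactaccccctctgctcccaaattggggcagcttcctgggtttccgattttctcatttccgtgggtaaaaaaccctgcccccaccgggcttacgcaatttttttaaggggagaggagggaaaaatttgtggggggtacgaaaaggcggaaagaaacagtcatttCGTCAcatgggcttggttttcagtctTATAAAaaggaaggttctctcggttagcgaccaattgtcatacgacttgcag
Each motif was searched on both strands. ACANNNTGT, the core of the steroid response element, was in none of the members' windows and in 5.37% of all 35116 windows of 300 bases. Its arm, TGTTCT, was in 1 member window, that of PLA2G7. There it lies on the other strand and reads AGAACA from base 12, counting the start as base 1, and 14.8% of all windows hold it. TGACG, the core of the cAMP response element, was in 4 member windows and in 24.6% of all windows. In the PTGS2 sequence it reads CGTCA, since it lies on the other strand. PTGS2 also had a TATA box, searched as TATAAA, that began at position -32. This motif was in 2 member windows, 1 each of PTGS2 and PTGS1, and in 11.5% of all windows. The GC box, searched as GGGCGG, was in 9 of the 13 windows, among them a second window of PLA2G7, and in 45% of all windows. These matches describe letters in the windows and say nothing of binding.

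On the scale as deposited, array medians were 5.16 to 5.28 (log2 RMA signal) and correlations within groups were 0.987 to 0.997. RMA normalizes between arrays, so close medians follow from the processing and do not test whether the arrays are comparable. FKBP5, a progestin-induced cochaperone, rose 11.8-fold (adjusted p = 2.33e-06, limma), and the receptor gene PGR was at 10.17 to 10.25 on control and 10.47 to 11.08 on MPA arrays (adjusted p = 0.294). The 6 epithelial markers had signals of 7.23 to 14.11, and limma called none (3 at an unadjusted p under 0.05, and 3 lower by SAM). Of 4 leukocyte markers measured, 3 were under all array medians, and 3 of 4 endothelial markers likewise. The 5 fibroblast markers summed to 1706 to 2262 on control and 1216 to 1454 on MPA arrays (linear signal), with none called by limma (2 at an unadjusted p under 0.05, and 2 lower by SAM). Such a sum weighs bright genes most. The median log2 fold change of the 5 was -0.03 (range -0.81 to 0.10), 2 were positive, and 2 were under all array medians. The MPA 3 array stood apart in its control probe sets, with a mean poly-A control signal of 6.19 against 7.50 to 8.23 on the others and a mean signal of the ribosomal RNA controls (3 probe sets) of 7.06 against 8.09 to 9.44. In such bulk RNA, fewer cells expressing a gene and less RNA per cell cannot be told apart.

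PLA2G7 was strongly down regulated by MPA, and it was the only one of the 9 measured genes that passed the test. A call required an adjusted p under 0.05 in limma, over all 54613 probe sets, and a fold change of at least 1.25. By this rule 1 of 20 probe sets was called, which is to be read against 2.03% of all probe sets. Among brightest probe sets per gene, 1.16% of all genes were called lower and 1.74% higher, against 1 and 0 of the 9 genes. The remaining 19 probe sets had log2 fold changes of -0.23 to 0.63 and adjusted p-values of 0.104 to 0.993. At an unadjusted p under 0.05 there were 5 of the 20, against 10.3% of all probe sets. The 95% intervals of the 19 together reached from -0.54 to 1.16.

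The single PLA2G7 probe set (206214_at) had log2 signals of 6.14, 6.28 and 6.24 on control arrays 1 to 3. On MPA arrays 1 to 3 the signals were 4.11, 4.16 and 4.06. All MPA arrays lay far below all control arrays, the groups did not overlap, and on each MPA array the signal was under that array's median while on each control array it was above. The means were 6.22 ± 0.07 and 4.11 ± 0.05 (SD, n = 3 each). The log2 fold change was -2.11 (SE 0.10, 95% interval -2.34 to -1.88), a 4.31-fold lower signal, with an adjusted p of 3.21e-05 (limma). Among all named genes this was number 6 in size of fall. PLA2G7 was called under each of the 14 alternatives that kept it, with log2 fold changes of -2.19 to -2.08 and adjusted p-values of 2.06e-06 to 0.000879; a filter on dim probe sets removed it.

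PLA2G4A, the cytosolic phospholipase A2 that starts prostaglandin synthesis, went the other way in its mean without passing the test. Its probe set (210145_at) read 6.27, 6.78 and 6.44 on control and 7.15, 7.57 and 6.48 on MPA arrays. MPA arrays 1 and 2 were above every control array, whereas MPA 3 lay within the control range, so that the groups overlapped. The log2 fold change was 0.57 (SE 0.26, 95% interval -0.03 to 1.16, adjusted p = 0.519, limma). With 1 array left out, it ranged from 0.32 (without MPA 2, adjusted p = 0.692) to 0.86 (without MPA 3, adjusted p = 0.0858) and was never called. MPA 3 is the array that stood apart in its control probe sets, and whether this bears on PLA2G4A was not tested.

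**Figure D1:**
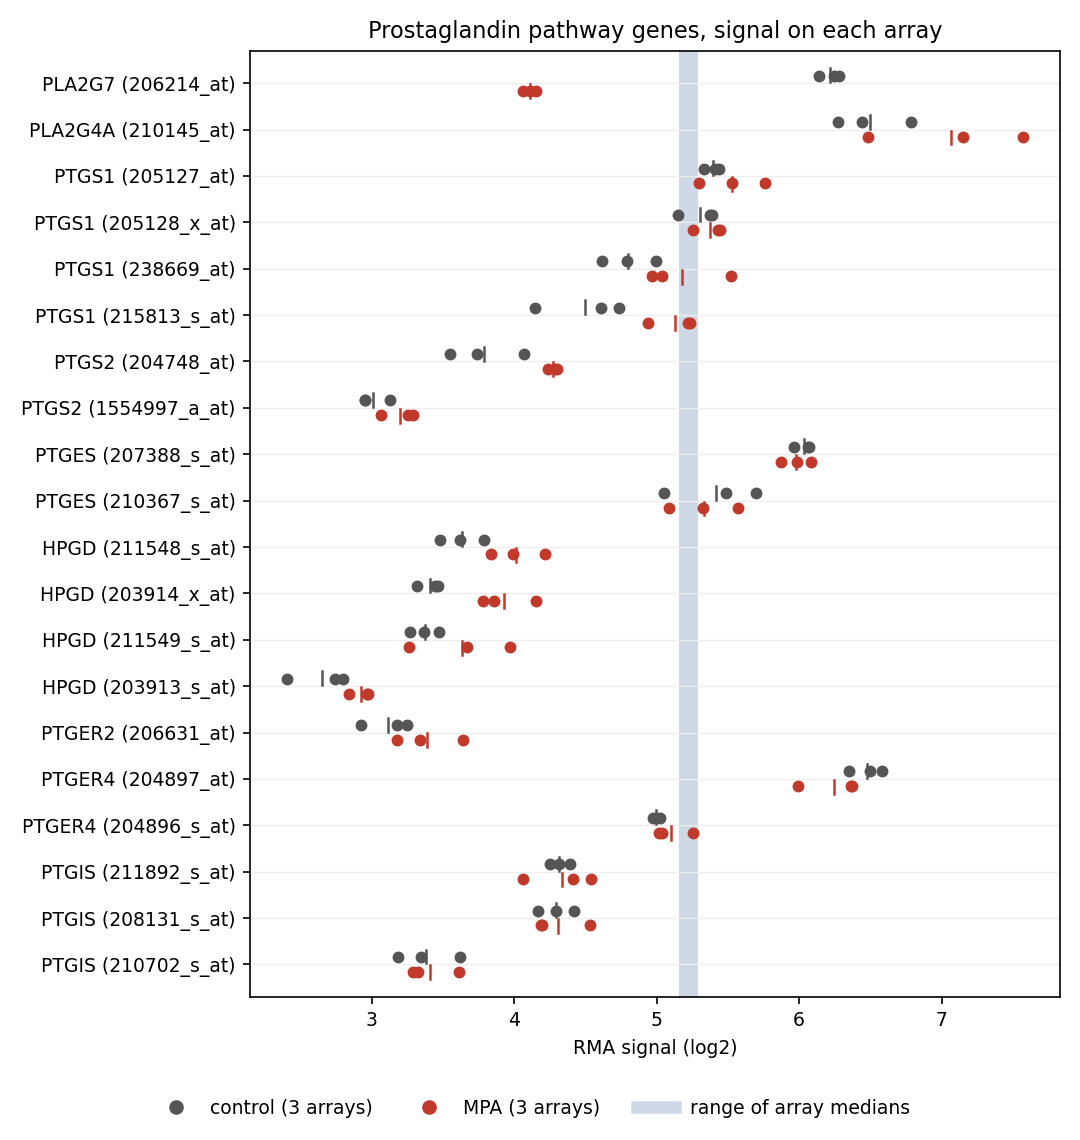
Log2 RMA signal (x axis) of the 20 probe sets (rows) on each of 3 control arrays (grey points) and 3 MPA arrays (red points), with short lines at the group means and a band over the range of array medians, 5.16 to 5.28. PLA2G7 fell from 6.14 to 6.28 on control arrays to 4.06 to 4.16 on MPA arrays, while most other rows lie close together or overlap; rows are not comparable in level with one another.

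Neither cyclooxygenase was called. PTGS1, the constitutive enzyme, had 4 probe sets. The brightest (205127_at) read 5.41, 5.33 and 5.44 on control and 5.53, 5.30 and 5.76 on MPA arrays, with overlapping groups and a log2 fold change of 0.13 (95% interval -0.17 to 0.44, adjusted p = 0.862, limma). The dimmest (215813_s_at) read 4.74, 4.15 and 4.61 on control and 5.23, 4.94 and 5.22 on MPA arrays. Here each MPA array was above each control array, and the log2 fold change was 0.63 (SE 0.17, 95% interval 0.24 to 1.02, adjusted p = 0.153). The other two gave 0.38 (238669_at, adjusted p = 0.512) and 0.07 (205128_x_at, adjusted p = 0.928), both with overlapping groups. All 4 fold changes of PTGS1 were positive, but that of 205128_x_at turned to -0.01 when arrays were scaled by housekeeping genes. The 4 probe sets of this gene thus differed in size of change from 0.07 to 0.63.

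PTGS2, the inducible cyclooxygenase whose promoter is printed above, was measured at low signal, with both probe sets under the median of every array. The brighter (204748_at) read 3.55, 4.07 and 3.74 on control and 4.29, 4.30 and 4.24 on MPA arrays. The MPA arrays were close together and all above the control arrays, of which control 2 was the highest. The log2 fold change was 0.49 (SE 0.14, 95% interval 0.17 to 0.81, adjusted p = 0.188, limma). With 1 array left out, this probe set was called only without control 2 (log2 fold change 0.63, adjusted p = 0.0419). The other omissions gave adjusted p-values of 0.251 to 0.584, with the smallest log2 fold change, 0.37, without control 1. The dimmer probe set (1554997_a_at) read 2.95, 3.13 and 2.95 on control and 3.25, 3.07 and 3.29 on MPA arrays, which overlapped (log2 fold change 0.19, 95% interval -0.07 to 0.45, adjusted p = 0.679). PTGS2 and PLA2G4A are neighbours on chromosome 1, with 0 protein-coding genes and 1 noncoding gene, PACERR, between them.

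The terminal synthases showed small differences that did not pass the test. PTGES, the inducible prostaglandin E synthase, read 5.97, 6.07 and 6.07 on control and 5.87, 5.98 and 6.08 on MPA arrays at its brighter probe set (207388_s_at). The groups overlapped, and the 95% interval of the log2 fold change ran from -0.29 to 0.18 around -0.05 (adjusted p = 0.946, limma). Its second probe set (210367_s_at) read 5.70, 5.05 and 5.49 on control and 5.33, 5.09 and 5.57 on MPA arrays, with a wider interval of -0.51 to 0.35 around -0.08 (adjusted p = 0.956). PTGIS, the prostacyclin synthase, was under the array medians at all 3 probe sets. Its brightest (211892_s_at) read 4.31, 4.39 and 4.25 on control and 4.54, 4.06 and 4.42 on MPA arrays, and the MPA arrays spread to both sides of the controls. Its 3 log2 fold changes were 0.02, 0.01 and 0.03, all with overlapping groups and with intervals that lay between -0.31 and 0.36, and all 3 turned negative under housekeeping scaling.

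HPGD, the enzyme that begins prostaglandin breakdown, was dim but was the member gene with most probe sets that separated the groups. All 4 of its probe sets were under the median of every array, and on 3 of them the groups did not overlap. Of all probe sets, 15.4% did not overlap. The probe set with the largest difference (203914_x_at) read 3.32, 3.44 and 3.46 on control and 3.86, 4.15 and 3.78 on MPA arrays. Each MPA array was above each control array, MPA 2 highest, and the log2 fold change was 0.52 (SE 0.13, 95% interval 0.23 to 0.81, adjusted p = 0.104, limma). The brightest (211548_s_at) read 3.79, 3.48 and 3.62 on control and 3.99, 4.22 and 3.84 on MPA arrays, again without overlap (log2 fold change 0.38, 95% interval 0.07 to 0.69, adjusted p = 0.327). The other two had log2 fold changes of 0.28 (203913_s_at, no overlap, adjusted p = 0.523) and 0.26 (211549_s_at, overlap, adjusted p = 0.729). None of the 4 was called. The 4 positive values are not independent, as the probe sets read the same gene on the same arrays, and the ending _x_at marks probes that may also bind other transcripts.

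The receptors for prostaglandin E2 that couple to cAMP were not called. PTGER4 read 6.58, 6.50 and 6.35 on control and 6.36, 6.37 and 5.99 on MPA arrays at its brighter probe set (204897_at). MPA 3 was the lowest array, MPA 1 and 2 lay just above control 3, and the log2 fold change was -0.23 (95% interval -0.54 to 0.08, adjusted p = 0.668, limma). Its second probe set (204896_s_at), which was under all array medians, read 4.97, 4.99 and 5.02 on control and 5.02, 5.04 and 5.26 on MPA arrays and gave 0.10 (adjusted p = 0.870), so the 2 probe sets differed in sign. PTGER2 (206631_at) was under all array medians, with 3.18, 2.93 and 3.24 on control and 3.34, 3.64 and 3.18 on MPA arrays. The groups overlapped, with a log2 fold change of 0.27 (95% interval -0.07 to 0.61, adjusted p = 0.640).

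**Figure D2:**
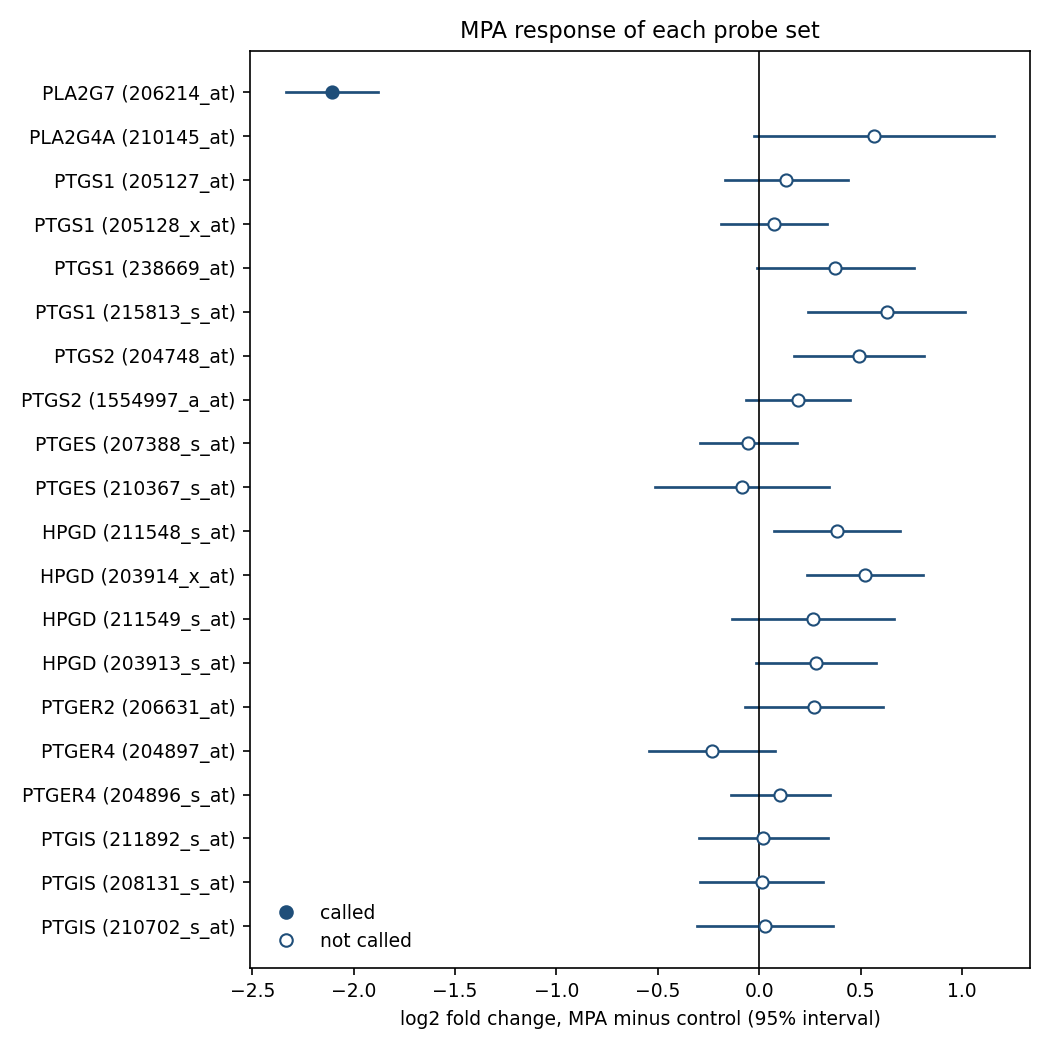
Log2 fold change of MPA over control (x axis) for the 20 probe sets (rows), with 95% intervals from limma for 3 against 3 arrays; filled points were called and open points were not. PLA2G7 at -2.11 is the only filled point, and no other point lies below -0.23 or above 0.63.

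Over the 20 probe sets, 16 log2 fold changes were positive and 4 negative, and the median was 0.16 against 0.01 for all probe sets. This count depended on scaling, since 12 were positive under housekeeping scaling, where 33.1% of all probe sets were, and 14 under a second quantile normalization, where 49.3% were, against 53.8% as deposited. The 20 probe sets are not independent, as several read the same gene on the same arrays. At the brightest probe set of each gene, 6 of the 9 fold changes were positive, against 10942 of all 19775 named genes. The groups did not overlap on 6 of the 20 probe sets, 5 with MPA above control and 1 below, and 3 of the 6 were of HPGD. Among all probe sets, 15.4% did not overlap. SAM, the permutation-based test of the study's methods, called 4 of the 20, namely PLA2G7 lower and 1 probe set each of PTGS1, PTGS2 and HPGD higher, against 3.99% of all probe sets. The 3 higher calls were those with log2 fold changes of 0.63, 0.49 and 0.52 described above. Of the 20 probe sets, 11 were under the median of every array, and these included every probe set of PTGS2, HPGD, PTGER2 and PTGIS.

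The other genes of eicosanoid metabolism were taken from 6 lists set by role, with 59 of 62 genes measured. Of these, 2 were higher, 2 lower and 55 not called, with a median log2 fold change of 0.07 against 0.02 for all named genes. These counts, taken at the brightest probe set of each gene, stand against the 1.74% of all genes called higher and 1.16% called lower. By SAM 7 of the 59 were called, against 5.23% of all genes, and 8 had an unadjusted p under 0.05, against 11.8%. The higher genes were AKR1B10 and SLCO2A1, and the lower ones LPCAT2 and AKR1C1. Limma called none of 15 phospholipases and regulators of arachidonate release (median 0.14), where SAM called 0 and the unadjusted p was under 0.05 for 1. It called none of 8 genes for prostanoid receptors and the receptor partner PTGFRN (range -0.27 to 0.14 at the brightest probe sets), with 0 by either measure there. Of the dimmer probe sets, 2 of the thromboxane receptor TBXA2R, picked out after their values were seen, had every MPA array above every control array (336_at, 0.41, adjusted p = 0.228, and 207554_x_at, 0.47, adjusted p = 0.389). Its other probe sets gave -0.09 (211590_x_at) and -0.001 (207555_s_at), both with overlapping groups. Of all probe sets, 15.4% did not overlap. Of 10 genes of the lipoxygenase and leukotriene branch (median 0.06) limma also called none, while SAM found 1 lower and the unadjusted p was under 0.05 for 1.

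**Figure D3:**
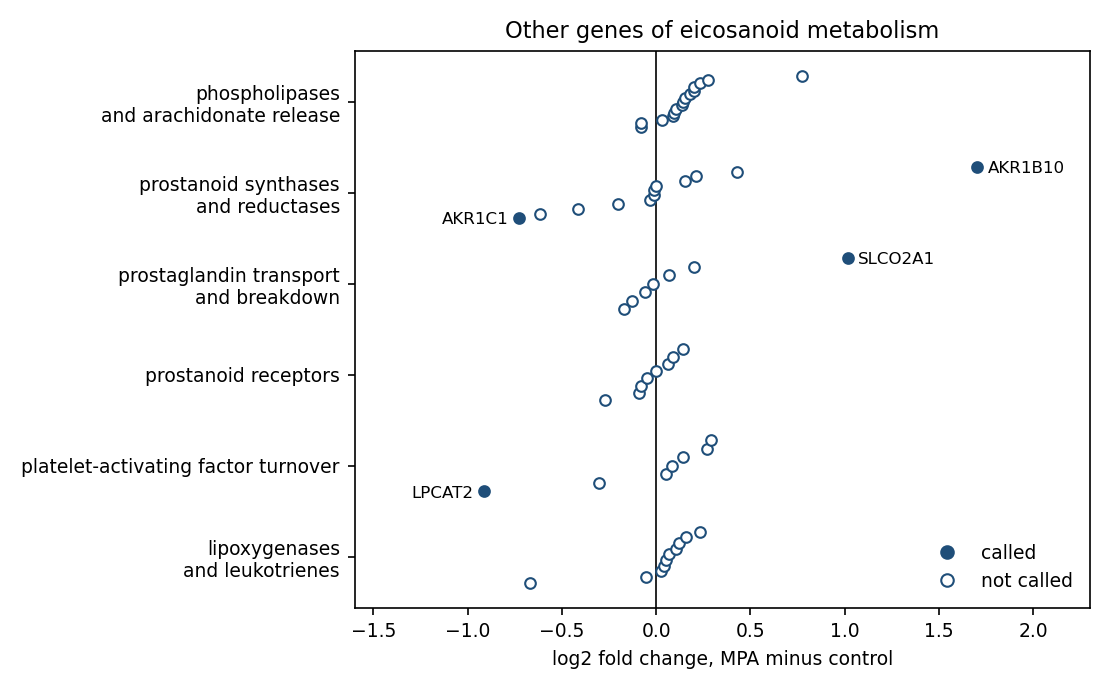
Log2 fold change of MPA over control (x axis) for the brightest probe set of each of 59 measured genes, grouped by list (rows); filled points were called by limma and are named. AKR1B10 (1.70) and SLCO2A1 (1.02) lie to the right and LPCAT2 (-0.91) and AKR1C1 (-0.73) to the left, while most open points lie near 0.

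In PAF turnover, where PLA2G7 degrades the mediator, LPCAT2 also fell. LPCAT2 is an acyltransferase that can make PAF by acetylating lyso-PAF. Its brightest probe set (239598_s_at) read 6.64, 6.16 and 6.52 on control and 5.59, 5.36 and 5.63 on MPA arrays, without overlap (log2 fold change -0.91, SE 0.15, adjusted p = 0.0168, limma). A second (227889_at) read 6.01, 6.60 and 5.87 on control and 4.71, 5.03 and 4.42 on MPA arrays (-1.44, adjusted p = 0.0122). Another (222833_at) fell by 0.77 (adjusted p = 0.0115), whereas the dimmest (229791_at) gave 0.07 (adjusted p = 0.921). So 3 of 4 probe sets were called lower. The call of the brightest was lost without control 1, control 3, MPA 1 or MPA 2 (adjusted p = 0.0643 to 0.107). It was also lost under the treat test of limma (adjusted p = 0.147) and a 2-fold minimum. The remaining 6 genes of the list were not called, among them the intracellular PAF hydrolase subunits PAFAH1B1 (0.29, adjusted p = 0.586) and PAFAH1B3 (-0.30, adjusted p = 0.631).

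Among 7 genes of prostaglandin transport and breakdown, SLCO2A1 rose and 6 were not called. SLCO2A1 is the prostaglandin transporter that takes prostaglandins up into cells, where HPGD acts on them. It read 5.91, 5.43 and 5.69 on control and 6.61, 6.71 and 6.77 on MPA arrays (204368_at), with every MPA array above every control array. The log2 fold change was 1.02 (SE 0.14, 2.02-fold, adjusted p = 0.00678, limma), and it was called under all 15 alternatives run for it, with adjusted p-values up to 0.0492. ABCC4, which exports prostaglandins, gave 0.20 (adjusted p = 0.663), and CYP4F2, a fatty acid hydroxylase, gave -0.17 (adjusted p = 0.711).

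The 12 prostanoid synthases and reductases held 1 gene called higher and 1 lower, both aldo-keto reductases. AKR1B10, a relative of AKR1B1 that reduces retinal and other aldehydes, read 5.26, 4.86 and 5.17 on control and 6.67, 7.03 and 6.71 on MPA arrays (206561_s_at). It rose by 1.70 on the log2 scale (SE 0.15, 3.25-fold, adjusted p = 0.000695, limma) without overlap, and kept its call under all 15 alternatives run for it. AKR1C1, which inactivates progesterone by reduction, read 9.42, 9.21 and 9.40 on control and 8.61, 8.45 and 8.78 on MPA arrays (204151_x_at) and fell by 0.73 (SE 0.12, adjusted p = 0.0216). That call was lost without control 1, control 3, MPA 1 or MPA 2 (adjusted p = 0.0742 to 0.136) and with the mean of all its probe sets (-0.32, adjusted p = 0.271). The AKR1C1 call was also lost under the treat test of limma (adjusted p = 0.337) and a 2-fold minimum. Of its other probe sets, 216594_x_at gave -0.66 without overlap (adjusted p = 0.0857), and 217626_at, 1555855_at and 1555856_s_at, all under the array medians, gave -0.04, -0.16 and -0.04 (adjusted p = 0.796 to 0.978). AKR1C2, a close relative, was not called at its brightest probe set (-0.61, adjusted p = 0.0561) but was lower at another (209699_x_at, -0.73, adjusted p = 0.0375). AKR1C3, the prostaglandin F synthase of this family, gave -0.42 without overlap (209160_at, adjusted p = 0.146). SAM called it lower, as it did the brightest probe set of AKR1C2. The AKR1C genes are close paralogs, and several probe sets of AKR1C1 and AKR1C2 carry the ending _x_at, so which of the AKR1C genes changed is uncertain.

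**Figure D4:**
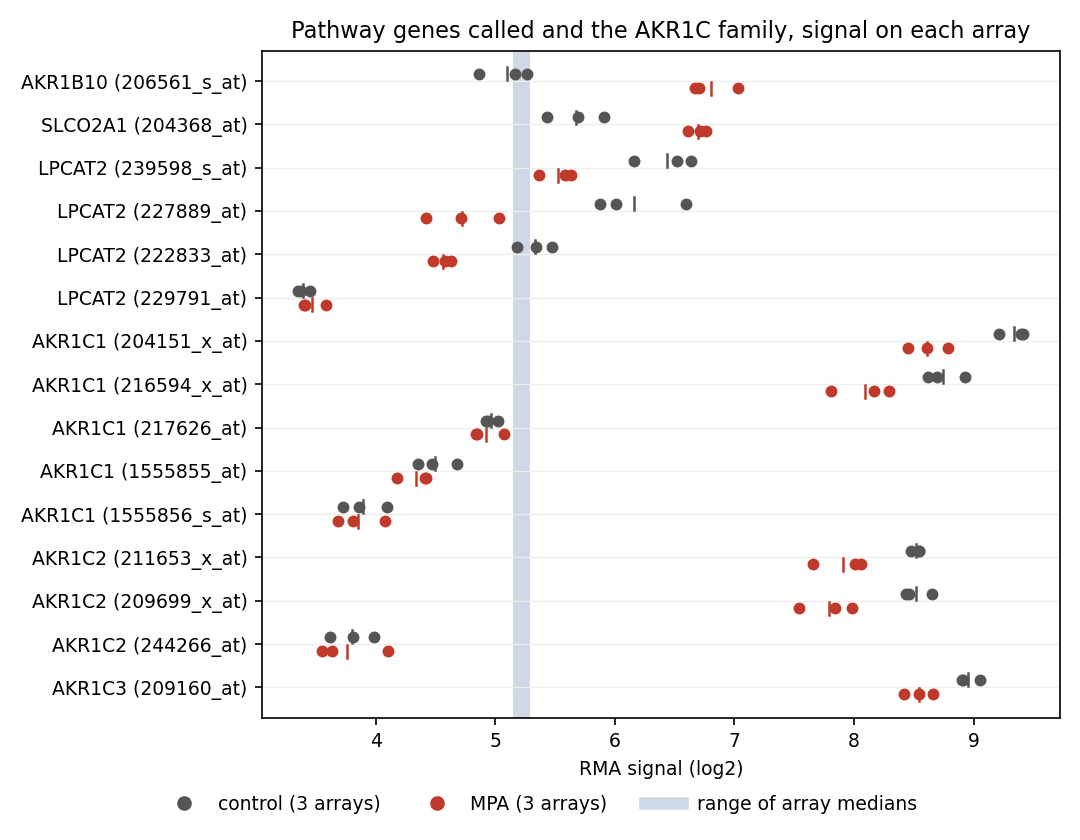
Log2 RMA signal (x axis) of all probe sets (rows) of the 4 called genes and of AKR1C2 and AKR1C3 on 3 control arrays (grey points) and 3 MPA arrays (red points), with lines at the group means and a band over the range of array medians. AKR1B10 and SLCO2A1 lie higher on all MPA arrays, and 3 of the 4 LPCAT2 rows and the bright AKR1C rows lie lower.

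Of the genes not called, ANXA1 and ALOX5 had the largest differences at their brightest probe sets. ANXA1, a protein known to restrain phospholipase A2 and induced by glucocorticoids, read 10.79, 11.79 and 10.94 on control and 11.66, 12.41 and 11.78 on MPA arrays (201012_at). Array 2 was the highest in both groups, the groups overlapped, and the log2 fold change was 0.78 (95% interval 0.13 to 1.42, adjusted p = 0.351, limma). ALOX5, the 5-lipoxygenase that starts leukotriene synthesis, read 9.36, 8.81 and 9.16 on control and 8.56, 8.27 and 8.49 on MPA arrays (204446_s_at). Here the groups did not overlap, and the log2 fold change was -0.67 (95% interval -1.03 to -0.31, adjusted p = 0.0932, limma). With 1 array left out, ALOX5 was called only without control 2 (adjusted p = 0.0266), and the adjusted p reached 0.362 without control 3. Its other probe sets gave -0.24 (204445_s_at, overlap), -0.30 (214366_s_at, no overlap) and -0.05 (213952_s_at, overlap), none called. The mean of all its probe sets gave -0.31 (adjusted p = 0.318). PLA2G4C (0.28, adjusted p = 0.542), LTC4S (0.23, adjusted p = 0.765), PTGFRN (-0.27, adjusted p = 0.665) and the prostacyclin receptor PTGIR (0.14, adjusted p = 0.875) were next in their lists and not called.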

How the data were processed

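RNA of control and MPA treated IKPRAB-36 cells was hybridized to Affymetrix U133 Plus arrays, 3 per group. The authors deposited log2 signals made with RMA, which corrects background, normalizes between arrays and summarizes the probes of a probe set; no further normalization was applied, and the software version was not given in the sources used. Of 54675 probe sets, 62 Affymetrix controls were left out. Platform annotation, with symbols updated by gene identifier (41037 of 41091 probe sets with 1 symbol), named the genes, and each gene's value was that of its probe set brightest on average over the 6 arrays. Groups were taken from the sample titles and compared with limma 3.58.1 in R 4.3.3 (lmFit and eBayes, two-sided, no covariate, Benjamini-Hochberg over 54613 probe sets), with motif searches in Python 3.11.15. Precision is limited by the number of arrays, and a permutation test of single values could not go below p = 0.1 with 3 against 3. SAM was written from its description (delta 0.53, all 20 relabelings, constant at the 55th percentile).

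Genes named were all members with every probe set, list genes called, up to 2 further genes per list with the smallest adjusted p, and FKBP5 and PGR as checks. TBXA2R was named outside this rule, after its values were seen. Other probe sets of a called gene are given beside it. Members and lists were chosen with earlier results of these data known. Alternatives were SAM, a block for the replicate number, the treat test of limma, an intensity trend, no fold minimum, a 2-fold minimum, a filter removing probe sets whose mean over arrays lay under the median, scaling by housekeeping genes (11 of 13 listed were measured), quantile normalization once more, leaving out each array and the mean of a gene's probe sets. The steps were tested on simulated data.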

Additional observations from a re-analysis of the deposited data

How the results depend on the processing

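Over all probe sets, 1107 were called, against 2033 with the replicate number as a block, 2181 by SAM, 455 by limma's treat test, 510 with a 2-fold minimum and 518 to 1190 with 1 array left out; the count was lowest without control 3 (518), MPA 1 (529) and control 1 (608). The share called higher was 59.9%, and 47.4% under housekeeping scaling (546 higher, 606 lower), which moved the median of all probe sets to -0.07. Of the members' probe sets 1 was called, against 3 with the replicate block, 4 by SAM, 0 once dim probe sets were left out and 1 to 2 with 1 array left out (2 without control 2). Of the member genes 1 was called, against 2 by SAM, 0 without dim probe sets and 1 to 2 with 1 array left out. The dim filter kept 6 member probe sets of 4 genes and removed PLA2G7, so that fewer genes were tested. Of the other pathway genes 4 were called, against 7 with the replicate block, 7 by SAM, 2 by treat, 2 with a 2-fold minimum and 2 to 5 with 1 array left out (2 without control 1, control 3, MPA 1 or MPA 2). The cause of the other changes was not tested. The replicate block added PTGS1 215813_s_at (adjusted p = 0.0122), HPGD 203914_x_at (0.0428), ANXA1 (0.00312), ALOX5 (0.00766) and AKR1C2 (0.0159). The labels do not say whether same-numbered arrays were paired. Deviations of same-numbered arrays correlated at -0.02, 0.52 and 0.33, and those of differently numbered arrays at -0.48 to 0.35, which does not settle it. Signs turned for fold changes near 0. Under housekeeping scaling PTGS1 205128_x_at gave -0.0081 and the PTGIS probe sets -0.061, -0.069 and -0.054, and under the second quantile normalization PTGIS 211892_s_at gave -0.0023 and 208131_s_at -0.0064. With 1 array left out, the values ranged from -0.0026 to 0.13 (PTGS1 205128_x_at), -0.26 to 0.060 (PTGES 210367_s_at), -0.080 to 0.16, -0.10 to 0.074 and -0.075 to 0.15 (PTGIS 211892_s_at, 208131_s_at and 210702_s_at) and -0.017 to 0.24 (PTGIR). Over the members' probe sets and alternatives, 270 values kept direction and call, 6 passed the threshold newly, 16 changed sign and 0 lost a call. Only PLA2G7 was called in the main test, so a call could be lost only among its 14 values. For the other probe sets, keeping the call meant staying uncalled. Alternatives that changed only the test, the threshold or the probe sets tested kept the same fold change, so no sign could turn there. Stricter thresholds could not add a call. PLA2G7 is not counted under the filter that removed it.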
